A study of Amaranthus palmeri with 48 samples.

Results

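The most abundant transcripts of untreated Palmer amaranth (Amaranthus palmeri) leaves were 98 of the 26353 gene models in the count table, or 0.372% of them. They were chosen by their level: each had a mean level of at least 1000 CPM (a gene's count divided by the sum of its library and multiplied by 1000000) over the 18 untreated libraries. All 98 were listed as messenger RNA models and none as a transfer RNA. The levels that chose them are given below as a description, with no test. The lowest of the 98 were AmaPaChr02Ag041670 at a mean of 1015 CPM and AmaPaChr14Ag222740 at 1010.5 CPM. The highest genes outside were AmaPaChr15Ag228920 at 999.8 CPM and AmaPaChr07Ag131910 at 997 CPM.

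As background, photosynthetic leaf tissue usually gives much of its messenger RNA to a small set of transcripts, such as those of the Rubisco small subunit, which fixes carbon, and of the chlorophyll-binding proteins, which gather light. The levels of such transcripts are known to follow light, time of day, sugar status and stress. A fall of a few very abundant transcripts frees a large part of a library's reads for other genes, so abundance and share have to be read together. Which of the 98 identifiers encode such proteins is not known here, because the files pair no identifier with a gene name and no annotation was used. The identifiers are therefore given as they stand, with no role, no gene length and no position other than the chromosome label inside the identifier. The labelled tissue, leaf, could not be checked against marker genes for the same reason.

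The 48 libraries came from leaves taken 6 h after treatment, from plants with a resistant or a susceptible phenotype, called lines here. Plants were raised from seed in a growth chamber and sprayed once they stood 10 to 12 cm tall, and stranded libraries of polyadenylated RNA were read as 150 bp pairs. The work addressed resistance to several herbicides. Each line, treatment and batch formed a group of 3 libraries, and each batch had its own untreated controls of both lines. Batch 1 held controls, 2,4-D, which acts as a synthetic auxin, and mesotrione, an inhibitor of the plastoquinone and tocopherol pathway. Batch 2 held controls, atrazine, which blocks electron flow in photosystem II, and chlorsulfuron, which blocks acetolactate synthase and with it branched-chain amino acid synthesis. Batch 3 held controls and lactofen, which blocks protoporphyrinogen oxidase in tetrapyrrole synthesis. Libraries are named by the plant number in their titles. By those numbers, batches 1 and 2 held resistant plants 5, 7 and 8 and susceptible plants 5, 6 and 7. Batch 3 held resistant plants 1, 4 and 8 and susceptible plants 3, 5 and 7. How the lines were bred, what makes the resistant line resistant and the herbicide doses are not stated in the labels.

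Library totals ran from 16583010 to 72979429 counts. In 78 genes that were on in some plants of batch 1 and off in others, 15 of the 18 libraries of batch 2 matched the plant of their own line and number best. The other 3, all susceptible libraries numbered 7, matched plant 6, with 97.4% of the genes for atrazine, 93.6% for chlorsulfuron and 100% for the control, against 52.6%, 48.7% and 52.6% for plant 7. The susceptible libraries numbered 6 matched plant 6 as well. The 3 libraries of each susceptible group of batch 2 may thus not be 3 separate plants, which the labels do not settle. Tests of these groups count them as 3. For named genes, calls lost without the libraries numbered 7 are marked with the adjusted p found without them. The resistant control 8 of batch 3 also stood apart in scaling: its TMM factor, which corrects a library's total for its composition, was 0.643.

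In untreated leaves the 98 genes together held between 16.5% and 33.1% of a library's counts, with a median of 19.5%. The plot of summed shares shows this level in every library. The list was steep at its head. AmaPaChr01Ag016360 had a mean of 22676 CPM, 2.75 times the next gene, and made up 10.6% of all counts of the 98. The 10 highest genes made up 30.7% of them. Behind it came AmaPaChr09Ag151950 at 8232 CPM, AmaPaChr10Ag174310 at 5385 CPM, AmaPaChr11Ag188650 at 5057 CPM and AmaPaChr16Ag247600 at 4725 CPM. Of the 98, 31 had a mean of 2000 CPM or more. A longer transcript gives more reads per molecule, and gene lengths were not at hand, so this order is one of counts and not of molecules.

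**Figure D1:**
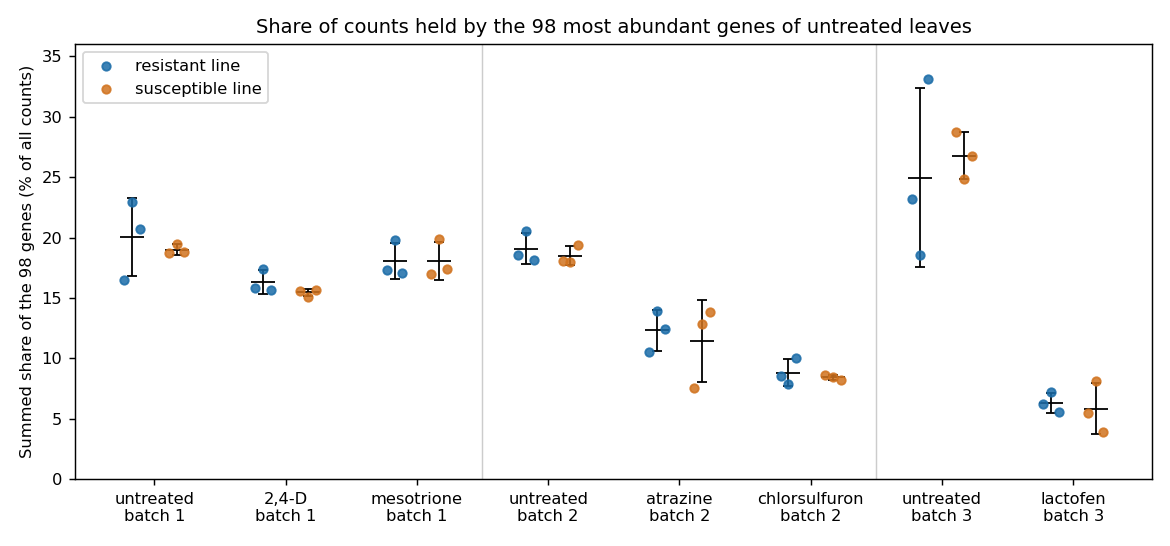
Summed share of the 98 genes in percent of all counts, one point per library (n = 3 per group), with the group mean and SD as bars, by treatment and batch and coloured by line. Untreated libraries sit between 16.5% and 33.1%, the chlorsulfuron libraries between 7.91% and 10.1%, and the lactofen libraries between 3.93% and 8.17%.

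The 18 untreated libraries did not hold the same list to the same level. Of the 98 genes, 32 reached 1000 CPM in each of the 18, 67 had a mean of at least 1000 CPM in each batch, and 18 were below 1000 CPM in 9 or more of the 18. The coefficient of variation (SD over mean) had a median of 33.7% and ran from 10.2% to 162%. AmaPaChr01Ag018600 was the steadiest, at 1207 to 1743 CPM, and AmaPaChr10Ag162950 came next at 2169 to 3382 CPM. Batch 3 stood above the others: its control mean was the highest of the 3 batches for 68 of the 98 genes, against 11 for batch 1 and 19 for batch 2. The median level of the 98 genes was 1439 CPM in the controls of batch 1, 1490 CPM in batch 2 and 1871 CPM in batch 3.

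Individual genes departed from that order. AmaPaChr16Ag247600, at rank 5, was measured at 1574, 11741 and 5667 CPM in the resistant controls of batch 1 and at 9429, 11619 and 4751 CPM in those of batch 2. In batch 3 it was at 861, 4650 and 373 CPM in the resistant and at 353, 943 and 178 CPM in the susceptible controls. The range over the 18 libraries was thus 178 to 11741 CPM, and the susceptible controls of batch 3 all lay below every control of the other batches. AmaPaChr01Ag016360 went the other way, from 15538 to 22802 CPM over the controls of batches 1 and 2 to 24120 to 40368 CPM in batch 3. Whatever else differed between batches cannot be told apart from batch.

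In untreated plants no difference between the lines was called among the 98 genes. The same 18 libraries chose the genes, by their mean over both lines and not by the difference between them, so nothing about the list is read from this count. Over the mean of the 3 batches edgeR's quasi-likelihood test called 0 of them at a Benjamini-Hochberg adjusted p under 0.05, the rule used for every call below, against 3.05% of the 20645 genes tested. At an unadjusted p under 0.05 there were 9, and DESeq2 called 0. Log2 differences, resistant minus susceptible, lay between -0.84 and 0.97, the upper end being AmaPaChr16Ag247600 (SE 0.39, adjusted p = 0.185). Without resistant control 5 of batch 1, 6 genes were called higher in the resistant line. They are the group with shared counts described next.

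That group, AmaPaChr00Ag261430, AmaPaChr00Ag261550, AmaPaChr00Ag262370, AmaPaChr00Ag262380, AmaPaChr00Ag263050 and AmaPaChr00Ag263060, had identical counts in all 48 libraries. The 6 genes are thus 1 measurement listed 6 times, which leaves 93 distinct ones. Over all gene models there were 225 such sets with 1111 members, and no gene outside the 6 shared their counts. Reads of these copies cannot be told apart in this table, and their level is uncertain by the number of copies. Their identifiers carry the chromosome label 00, which holds 7 of the 98 genes among 303 gene models.

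The 6 genes were higher in every library of batch 1 than in any library of the other batches. Each was at 2631, 7827 and 6261 CPM in the resistant controls of batch 1 and at 1908, 2512 and 1851 CPM in the susceptible ones. Over all of batch 2, treated libraries included, each lay between 94.3 and 285 CPM, and over batch 3 between 171 and 327 CPM. They reached the mean of 1393 CPM that put them in the list through the 6 controls of batch 1 alone. In the control that held most of them, resistant 7 of batch 1, the 6 copies together made up 4.70% of all counts. Counting them once took the untreated shares of batch 1 from 16.5 to 22.9% down to 15.2 to 19.0%. In batch 3 the same step moved the range from 18.6 to 33.1% to 18.4 to 33.0%.

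**Figure D2:**
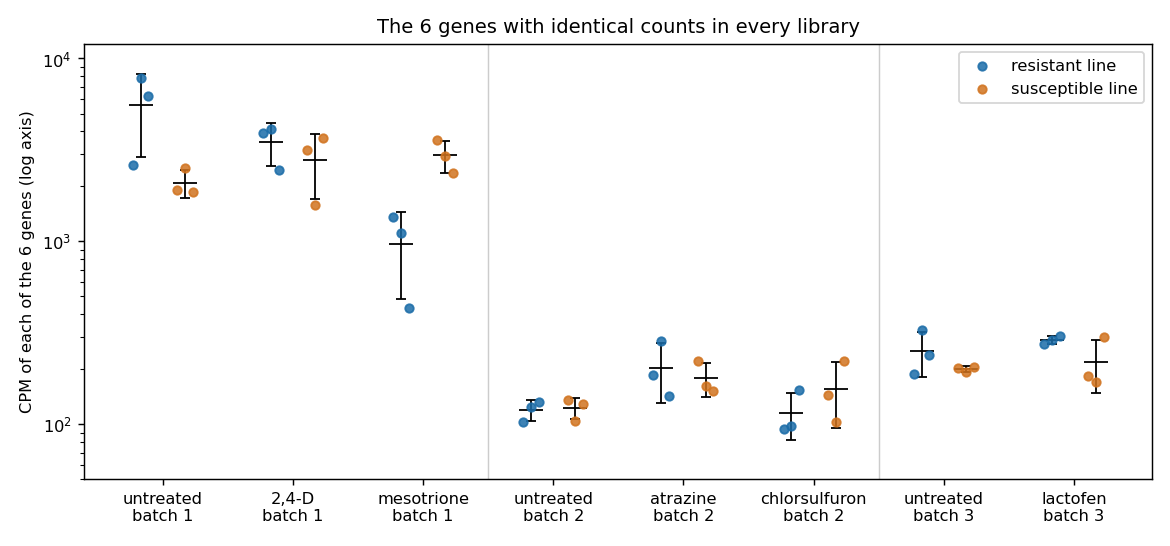
CPM of each of the 6 genes with identical counts (log axis), one point per library (n = 3 per group), with group mean and SD as bars, by treatment and batch and coloured by line. Batch 1 runs from 432 to 7827 CPM and batches 2 and 3 from 94.3 to 327 CPM. Within batch 1 the resistant mesotrione libraries are the lowest.

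For the responses, treated plants were set against controls of the same line and batch. Those controls helped to choose the genes, so a gene that happened to be high in them is both more likely to be in the list and more likely to appear lower after treatment. The counts of calls in each response were therefore repeated on the genes that pass the same level in the 12 controls of the other batches only. Counts of genes whose libraries do not overlap, counts by size of fall and counts by class of untreated level were not repeated in this way. Log2 changes are on the TMM scale, on which the median change of all genes tested lay between -0.04 and 0.07 in the 10 responses, and ± values are SD over 3 libraries. In bulk leaf tissue fewer cells of a type and less RNA per cell cannot be told apart. Among the labels, only the plant numbers in the titles say that libraries of a group are separate plants. In batch 2 the genes on or off by plant matched those numbers, except for the susceptible libraries numbered 7. The p-values measure the spread between these libraries.

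After 2,4-D the 98 genes held 15.8, 17.4 and 15.6% of counts in resistant plants, against 16.5, 22.9 and 20.7% in the controls. In susceptible plants they held 15.6, 15.1 and 15.7%, against 18.7, 19.5 and 18.8%. The means were 16.3 ± 0.982% against 20.0 ± 3.26% in the resistant line, where the libraries overlapped. Susceptible means were 15.5 ± 0.303% against 19.0 ± 0.431%, with every treated library below every control. A share over the chosen genes is given no test here or below.

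Gene by gene, 5 of the 98 were called lower after 2,4-D in the resistant line, where 0.843% of all genes tested were lower and 2.3% higher. Susceptible plants also had 5 called lower, against 1.69% of all genes lower and 3.58% higher. In the main edgeR fit, of all 48 libraries without a block, none was called higher in either line. In the susceptible line DESeq2 called 1 higher and 7 lower, and a fit of batch 1 alone called 2 higher and 25 lower. The shares of all genes called in those fits are not given here. When the other batches chose the list, 5 of 102 genes were lower in each line. The median log2 change was -0.42 in the resistant and -0.51 in the susceptible line. All treated libraries lay below all controls for 30 of the 98 in the resistant and 62 in the susceptible line, while 9.52% and 11.9% of all genes tested did so. They lay above all controls for 6 and 7 of the 98, for which the share of all genes is not given here. These controls helped to choose the list and the counts were not repeated on the list from other batches, so they describe the list only.

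The same 5 genes were called in both lines: AmaPaChr08Ag141840, AmaPaChr11Ag182110, AmaPaChr11Ag182120, AmaPaChr11Ag182170 and AmaPaChr16Ag239110, of which the last 3 are named after their values were seen. AmaPaChr08Ag141840 was at 795, 1791 and 1466 CPM in resistant controls and at 549, 619 and 731 CPM after 2,4-D. In susceptible plants it was at 1122, 1574 and 1761 CPM without and at 620.5, 643 and 709 CPM with 2,4-D. The groups did not overlap in either line, and the log2 change was -1.19 (SE 0.31, adjusted p = 0.0264) in the resistant and -1.27 (SE 0.31, adjusted p = 0.0112) in the susceptible line. AmaPaChr11Ag182110 fell by 1.11 (SE 0.30, adjusted p = 0.0352) and 1.20 (SE 0.30, adjusted p = 0.0137) on the log2 scale. AmaPaChr16Ag239110 went from 1403, 1359 and 1217 CPM to 701, 697 and 488 CPM in resistant plants, a log2 change of -1.14 (SE 0.33, adjusted p = 0.0476).

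AmaPaChr08Ag141840 and the 3 genes of chromosome label 11 moved as a block. Their log2 CPM correlated at r = 0.956 to 0.984 over the 48 libraries, which share batches and treatments, while AmaPaChr16Ag239110 had r between -0.222 and -0.148 with them. AmaPaChr11Ag182110 and AmaPaChr11Ag182120 have adjacent identifiers, and whether the 4 share reads was not tested. In the resistant line scaling by total counts left 0 calls, and so did leaving out control 7 or 8 or any of the 3 treated libraries. For susceptible plants leaving out control 7 or treated library 5 left 0, while a blocked fit, with plant number as a term, called 2 higher and 6 lower. The blocked fit called 1 higher and 4 lower in the resistant line, where AmaPaChr11Ag182110 was then not called (adjusted p = 0.0555).

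After mesotrione the share of the 98 genes overlapped the controls in both lines. Resistant plants had 17.3, 19.8 and 17.0% (mean 18.0 ± 1.49%) against 16.5, 22.9 and 20.7%. Susceptible plants had 17.0, 19.9 and 17.4% (mean 18.1 ± 1.58%) against 18.7, 19.5 and 18.8%. The resistant difference of -2.0 percentage points became 0.306 points with the 6 identical genes counted once, so its sign rested on that set. AmaPaChr01Ag016360 was at 21895, 28606 and 22035 CPM in resistant mesotrione plants, above 16418, 16525 and 17434 CPM in their controls. Its log2 change of 0.49 (SE 0.43, adjusted p = 1) was not called.

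In the resistant line 6 of the 98 genes were called lower after mesotrione, against 0.203% of all genes tested, and none was called higher, as for all genes. The 6 are the set with identical counts, or 1 of 93 distinct genes. They entered the list only through the batch 1 controls they are compared with here, so the count is a description and nothing is read from it. Each went from 2631, 7827 and 6261 CPM to 1355, 1108 and 432 CPM, and for AmaPaChr00Ag261430 the log2 change was -2.63 (SE 0.40, adjusted p = 0.000176). Susceptible libraries had 3573, 2929 and 2369 CPM of each after mesotrione and 1908, 2512 and 1851 CPM without, which was not called. None of the 98 was called there, by edgeR's quasi-likelihood test, where 0% of all genes were called. At an unadjusted p under 0.05 there were 3, and DESeq2 called 1. When the other batches chose the list, these 6 were not in it, and 0 of 102 genes were called in either line. The median log2 change of the 98 genes was -0.09 in the resistant and -0.19 in the susceptible line.

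After atrazine the share was lower than in every control. Resistant plants had 10.5, 13.9 and 12.5% (mean 12.3 ± 1.70%) against 18.5, 20.5 and 18.1% (mean 19.1 ± 1.29%). Susceptible plants had 7.55, 12.8 and 13.9% (mean 11.4 ± 3.39%) against 18.1, 18.0 and 19.4% (mean 18.5 ± 0.790%). Susceptible library 5 was the low one, and without it the susceptible difference was -5.16 points in place of -7.09.

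The list divided after atrazine. Among resistant plants 47 of the 98 genes were called lower, against 15.4% of all genes tested, and 5 higher, against 16.4%. Susceptible plants had 50 lower, against 15.4%, and 7 higher, against 20.6%. In both lines at once 44 were lower and 5 higher. The median log2 change was -0.87 and -0.93. With the list chosen from the other batches, 49 and 52 of 103 genes were lower. Without susceptible atrazine library 5, 30 genes were lower and 7 higher in that line.

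AmaPaChr01Ag024250 rose most. It was at 1109, 1373 and 1266 CPM in resistant controls of batch 2 and at 9344, 15898 and 11463 CPM after atrazine, a log2 change of 3.36 (SE 0.50, adjusted p = 4.98e-06). Susceptible plants went from 927, 973 and 862 CPM to 5113, 8601 and 9454 CPM, a change of 3.20 (SE 0.49, adjusted p = 5.43e-06). After atrazine it was the highest gene of the resistant plants by mean, at 12235 CPM, ahead of AmaPaChr01Ag016360. By mean change over both lines AmaPaChr02Ag041690 was next, at 1802, 2040 and 1029.5 CPM in resistant controls and 3667, 3630 and 4181 CPM after atrazine. Its change was 1.29 (SE 0.35, adjusted p = 0.00492) in the resistant and 1.13 (SE 0.35, adjusted p = 0.0107) in the susceptible line, and the groups did not overlap. The calls of AmaPaChr02Ag041690 were not kept without resistant control 8 (adjusted p = 0.0508), susceptible control 6 (0.0527) or the susceptible libraries numbered 7 (0.0585). The others higher in both lines, named after their values were seen, were AmaPaChr01Ag016540, AmaPaChr03Ag057120 and AmaPaChr06Ag104460, with log2 changes from 0.64 to 1.20. The upper end, AmaPaChr06Ag104460 in the susceptible line, was above the 1.13 of AmaPaChr02Ag041690 there.

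At the other end of the list were genes whose atrazine libraries lay far below every control. AmaPaChr05Ag094590 was at 2639, 3451 and 2526 CPM in resistant controls and at 160, 508 and 138 CPM after atrazine, a log2 change of -3.33 (SE 0.61, adjusted p = 9.28e-05). In susceptible plants it went from 3297, 2864 and 3190.4 CPM to 137, 160.0 and 173 CPM, a change of -4.19 (SE 0.64, adjusted p = 4.24e-06). AmaPaChr09Ag155380 fell by 3.17 (SE 0.81, adjusted p = 0.00301) and 3.65 (SE 0.83, adjusted p = 0.000759) on the log2 scale. Control and treated libraries did not overlap for either gene. AmaPaChr01Ag016360, by contrast, was at 3837, 10382 and 8192 CPM in resistant atrazine plants but at 2916, 14977 and 14798 CPM in susceptible ones. Its change was called in the resistant line (-1.25, SE 0.44, adjusted p = 0.0267) and not in the susceptible line (-0.55, SE 0.43, adjusted p = 0.343). The test of that difference is among the line comparisons below.

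After chlorsulfuron the share was 8.54, 7.91 and 10.1% in resistant plants (mean 8.84 ± 1.10%) and 8.62, 8.49 and 8.22% in susceptible plants (mean 8.44 ± 0.203%). The batch 2 controls are those given for atrazine, so both herbicides share them, and the control share was 2.16 times the treated share in the resistant and 2.19 times in the susceptible line. All treated libraries lay below all controls. The share of AmaPaChr01Ag016360 alone fell by 1.38 percentage points in each line. The summed share of the 10 genes that lost most changed by -4.38 points in the resistant and -4.26 points in the susceptible line.

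Among resistant plants 62 of the 98 were called lower, against 11.8% of all genes tested, and 2 higher, against 14.8%. Susceptible plants had 70 lower, against 15%, and 1 higher, against 18.1%. In both lines 61 were lower and 1 higher, and the median log2 changes were -1.40 and -1.68. With the list chosen from the other batches, 63 and 72 of 103 genes were lower.

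AmaPaChr01Ag014050 fell furthest. It was at 1705, 3790 and 2189 CPM in resistant controls and at 47.6, 78.2 and 93.4 CPM after chlorsulfuron, a log2 change of -5.22 (SE 0.79, adjusted p = 1.67e-05). Susceptible plants went from 1273, 1640 and 1949 CPM to 69.2, 75.6 and 73.4 CPM, a change of -4.61 (SE 0.77, adjusted p = 2.87e-05). AmaPaChr07Ag116320 fell by 3.90 (SE 0.53, adjusted p = 3.81e-06) and 3.61 (SE 0.52, adjusted p = 4.05e-06) on the log2 scale, also without overlap. AmaPaChr09Ag156470 was the gene called higher in both lines. It was at 1581, 1739 and 1752 CPM in resistant controls and at 3104, 3891 and 2808 CPM after chlorsulfuron, a change of 0.88 (SE 0.19, adjusted p = 0.000814). In susceptible plants it went from 1564, 1696 and 1678 CPM to 2195, 3108 and 3287 CPM, a change of 0.68 (SE 0.19, adjusted p = 0.00508), which was not kept without the susceptible libraries numbered 7 (adjusted p = 0.0795) or without chlorsulfuron library 6 (0.0527) or 7 (0.0561) alone. The other gene called higher in the resistant line, named after its values were seen, was AmaPaChr11Ag182110, at a change of 0.81 (SE 0.30, adjusted p = 0.0413).

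After lactofen the 98 genes held the lowest mean shares of the 16 groups. Resistant plants had 6.25, 7.21 and 5.54% (mean 6.33 ± 0.841%) against 23.2, 18.6 and 33.1% in their controls (mean 25.0 ± 7.41%). Susceptible plants had 5.49, 8.17 and 3.93% (mean 5.86 ± 2.14%) against 28.7, 24.8 and 26.7% (mean 26.7 ± 1.94%). Control means were 3.94 and 4.56 times the treated means. The resistant control 8 set the top of the control range, and without it the resistant difference was -14.6 points in place of -18.6.

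In each line 76 of the 98 genes were called lower, 75 of them in both, against 27.6% of all genes tested in the resistant and 29.3% in the susceptible line. Among resistant plants 1 gene was higher, against 26.1%, and among susceptible plants 3 were, against 30.4%. The median log2 change was -2.70 in the resistant and -2.91 in the susceptible line, while that of all genes was -0.04 and 0.00. A fall of at least 4-fold was called for 64 genes in the resistant and 68 in the susceptible line. How many of all genes tested fell as far was not counted, so these 2 counts describe the list only. With the list chosen from batches 1 and 2, 67 and 68 of 92 genes were lower, 72.8% and 73.9%, and their median log2 changes were -2.30 and -2.50.

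AmaPaChr01Ag016360 was at 33337, 24120 and 33540 CPM in resistant controls of batch 3 and at 2870, 2395 and 2202 CPM after lactofen. Its log2 change was -3.73 (SE 0.48, adjusted p = 6.08e-08) in the resistant and -2.89 (SE 0.46, adjusted p = 2.18e-06) in the susceptible line, and its share of counts changed by -2.78 and -2.97 points. AmaPaChr01Ag014050 again fell furthest. In resistant controls it was at 2475, 353 and 5872 CPM and after lactofen at 52.2, 47.7 and 63.7 CPM, a change of -6.04 (SE 0.82, adjusted p = 1.55e-07). In susceptible plants it went from 3815, 2531 and 3451 CPM to 130.3, 85.4 and 18.3 CPM, a change of -5.39 (SE 0.80, adjusted p = 5.28e-07). AmaPaChr09Ag155380 fell by 5.17 (SE 0.89, adjusted p = 8.94e-06) and 4.92 (SE 0.88, adjusted p = 1.26e-05), though its resistant controls were spread from 197 to 6441 CPM. All of these groups were free of overlap.

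AmaPaChr09Ag156470 rose in both lines after lactofen as well. It was at 1253, 1547 and 1009 CPM in resistant controls and at 2299, 2595 and 2412 CPM after lactofen, a log2 change of 0.89 (SE 0.19, adjusted p = 0.000153). In the susceptible line it went from 1093, 1158 and 1006 CPM to 1375, 1729.6 and 2125 CPM, a change of 0.67 (SE 0.19, adjusted p = 0.00247), not called in a fit of batch 3 alone (adjusted p = 0.0679). The other genes higher in the susceptible line, named after their values were seen, have adjacent identifiers. AmaPaChr02Ag045280 changed by 1.82 (SE 0.65, adjusted p = 0.0155), from 289, 294 and 648 CPM to 1004, 2371 and 1066 CPM. AmaPaChr02Ag045270 changed by 1.31 (SE 0.54, adjusted p = 0.0351), but with libraries that overlapped, from 408, 684 and 696 CPM to 537, 3301 and 718 CPM.

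**Figure D3:**
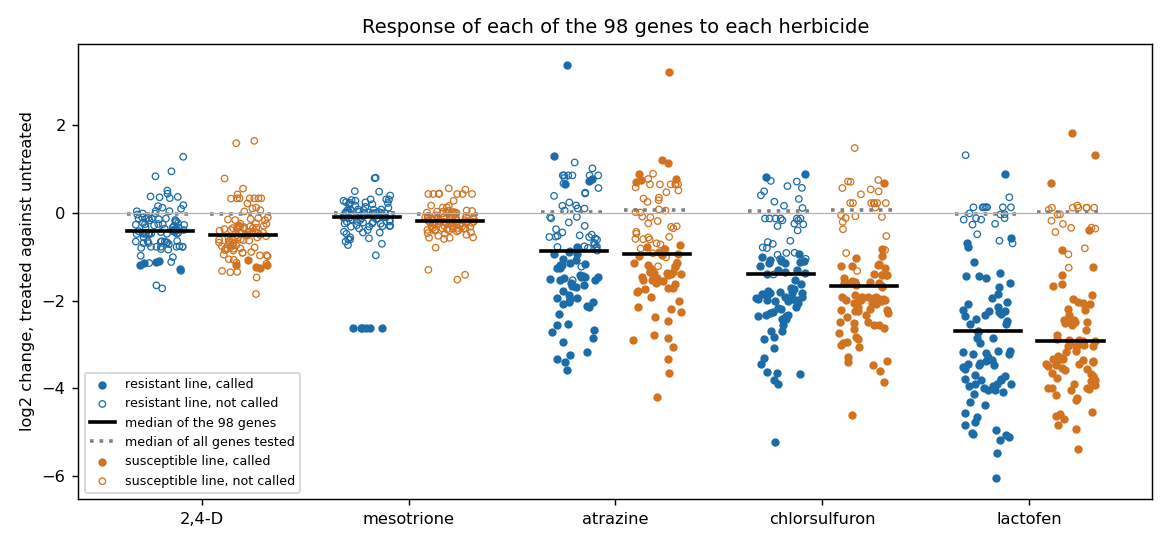
Log2 change of each of the 98 genes, treated against untreated libraries within line and batch, with filled points for calls, a solid line at the median of the 98 and a dotted line at the median of all genes tested. The medians of the 98 run from -0.09 after mesotrione to -2.91 after lactofen, while the dotted lines stay between -0.04 and 0.07. The group of filled points near -2.63 after mesotrione is the set with identical counts.

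How many of the most abundant genes after treatment were among the 98 differed by herbicide. In every control group the 10 highest genes by group mean were all among the 98. These controls chose the list, so that was largely set in advance and nothing is read from it. After mesotrione the 10 highest were all among the 98 as well. After 2,4-D 8 of the 10 were, after atrazine 8 in the resistant and 9 in the susceptible line, and after chlorsulfuron 7 in each. After lactofen 1 of the 10 was in the resistant and 3 in the susceptible line. There 100 genes reached a group mean of 1000 CPM in the resistant line and 90 in the susceptible line, and 18 of these were among the 98 in each. The genes of those lists that were not among the 98 held 16.3% and 12.4% of counts. Of the 98, 11 had a mean below 100 CPM after lactofen in the resistant and 9 in the susceptible line.

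After the herbicides of batches 2 and 3, a larger part of the genes was called lower at the top of the list than just below it. After lactofen 28 of the 31 genes with an untreated mean of 2000 CPM or more were called lower in each line, 90.3%. Of the 140 genes with an untreated mean from 500 CPM to under 1000 CPM, 99 were lower in each line, 70.7%. After chlorsulfuron the shares were 77.4% and 54.3% in the resistant and 83.9% and 62.1% in the susceptible line. After atrazine they were 54.8% against 40.7% and 42.9%. After 2,4-D the order of the calls was the other way, with 0% at the top against 6.43% and 9.29%. The median log2 changes were not, at -0.38 at the top against -0.34 in the resistant and -0.57 against -0.51 in the susceptible line. Counts of more abundant genes are measured more finely, and the difference between these classes was not tested. The classes were also cut by the mean over all untreated libraries, which include the controls compared here. A gene that happened to be high in those controls is more likely to be in the upper class and to appear lower. The classes were not formed again from other batches, so these shares describe the list only.

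Batches 2 and 3 share no control libraries, but controls of both helped to choose the list and some plant numbers occur in both. Calls in both lines at once, their overlaps between herbicides and calls over the 10 responses were not counted over all genes tested. Such counts describe the list only. All 44 genes lower in both lines after atrazine were also lower in both lines after lactofen, where 75 of the 98 were. With so many lower after lactofen, a large overlap would be seen in any case. Of the 61 lower in both lines after chlorsulfuron, 59 were among those 75. The exceptions, named after their values were seen, were AmaPaChr00Ag261890 and AmaPaChr16Ag239110. AmaPaChr16Ag239110 was also the gene lower in both lines after 2,4-D and after chlorsulfuron. Over the 10 responses 42 of the 98 genes were called lower in 6 of them, and 89 were called lower in at least 1.

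The exceptions to the general fall were few. Of the 98, 10 were called higher at least once, 6 of them without a call lower, and AmaPaChr09Ag156470 led with 5 calls. The same counts were not made over all genes tested. AmaPaChr01Ag024250 had the widest change of direction, from 3.36 after atrazine in the resistant line to -1.50 (SE 0.46, adjusted p = 0.00656) after lactofen in that line and -1.67 (SE 0.47, adjusted p = 0.00245) in the other. These changes start from different levels, with resistant control means of 1249 CPM in batch 2 and 4469 CPM in batch 3. The resistant lactofen libraries of this gene, at 1418 to 2216.5 CPM, lay above all resistant controls of batch 2, at 1109 to 1373 CPM. In the susceptible line the lactofen libraries, at 727 to 2879 CPM, overlapped the batch 2 controls, at 862 to 973 CPM. Its lactofen calls were not kept in a fit of batch 3 alone, with adjusted p of 0.107 and 0.0654, nor in the resistant line without control 8 (adjusted p = 0.25). AmaPaChr05Ag085740 was called higher after atrazine in the susceptible line, at 2054, 3184 and 3233 CPM against 1458, 1767 and 1795 CPM. Its log2 change was 0.88 (SE 0.33, adjusted p = 0.0326), and with total-count scaling its adjusted p was 0.0758. The call was also lost without the libraries numbered 7 (adjusted p = 0.15), and without atrazine library 6 or 7 or any one of the 3 controls (adjusted p from 0.0538 to 0.116). After lactofen it went from 1664, 1509 and 1582 CPM to 321, 1015 and 494 CPM, a change of -1.42 (SE 0.33, adjusted p = 0.000389). No response was called for AmaPaChr05Ag086160, AmaPaChr07Ag131880 or AmaPaChr10Ag173280. For AmaPaChr07Ag131880 all 10 log2 changes lay between -0.57 and 0.50, but without resistant control 4 of batch 3 its lactofen change there was 1.08 and called.

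**Figure D4:**
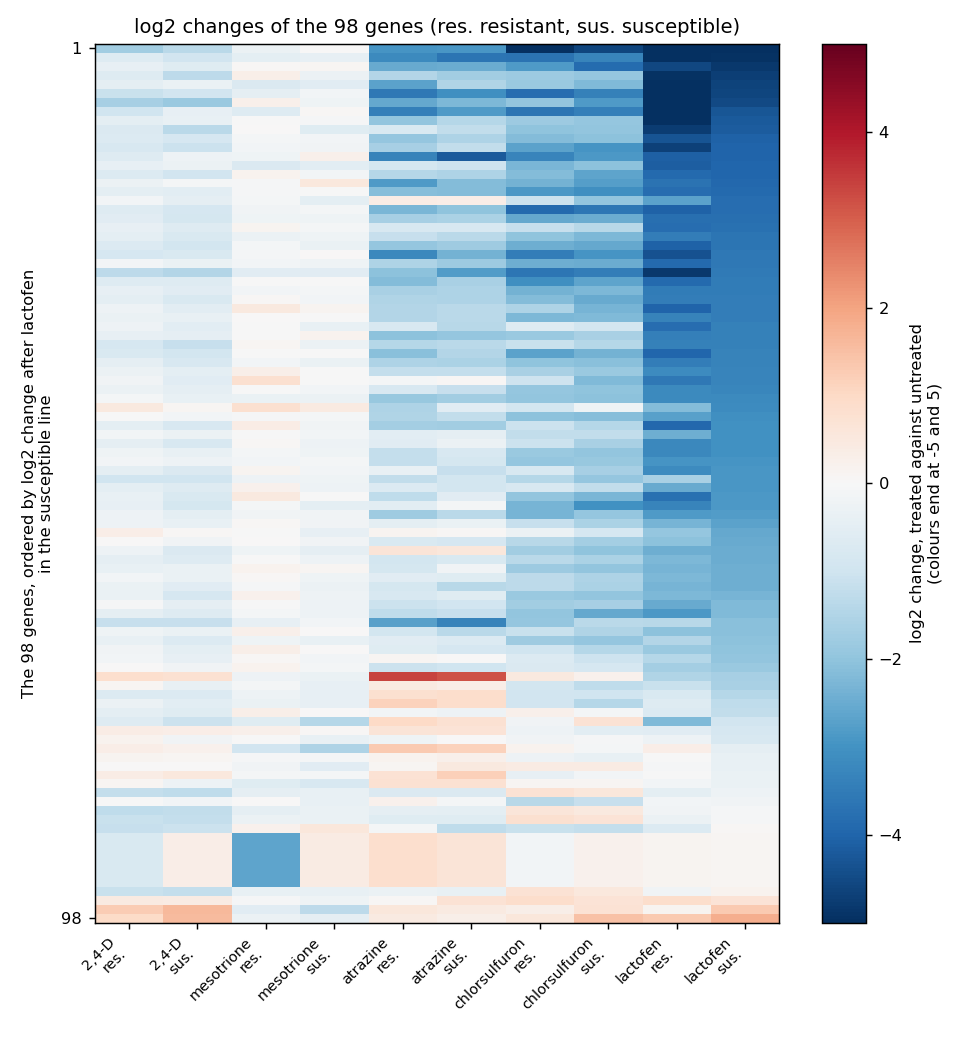
Log2 change of the 98 genes (one line each, ordered by the susceptible lactofen change) in the 10 responses, red for higher and blue for lower, with colours ending at -5 and 5. Blue deepens from atrazine through chlorsulfuron to lactofen over most of the list, with medians of -0.87, -1.40 and -2.70 in the resistant line. The block of equal colour near the bottom is the 6 genes with identical counts.

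**Figure D5:**
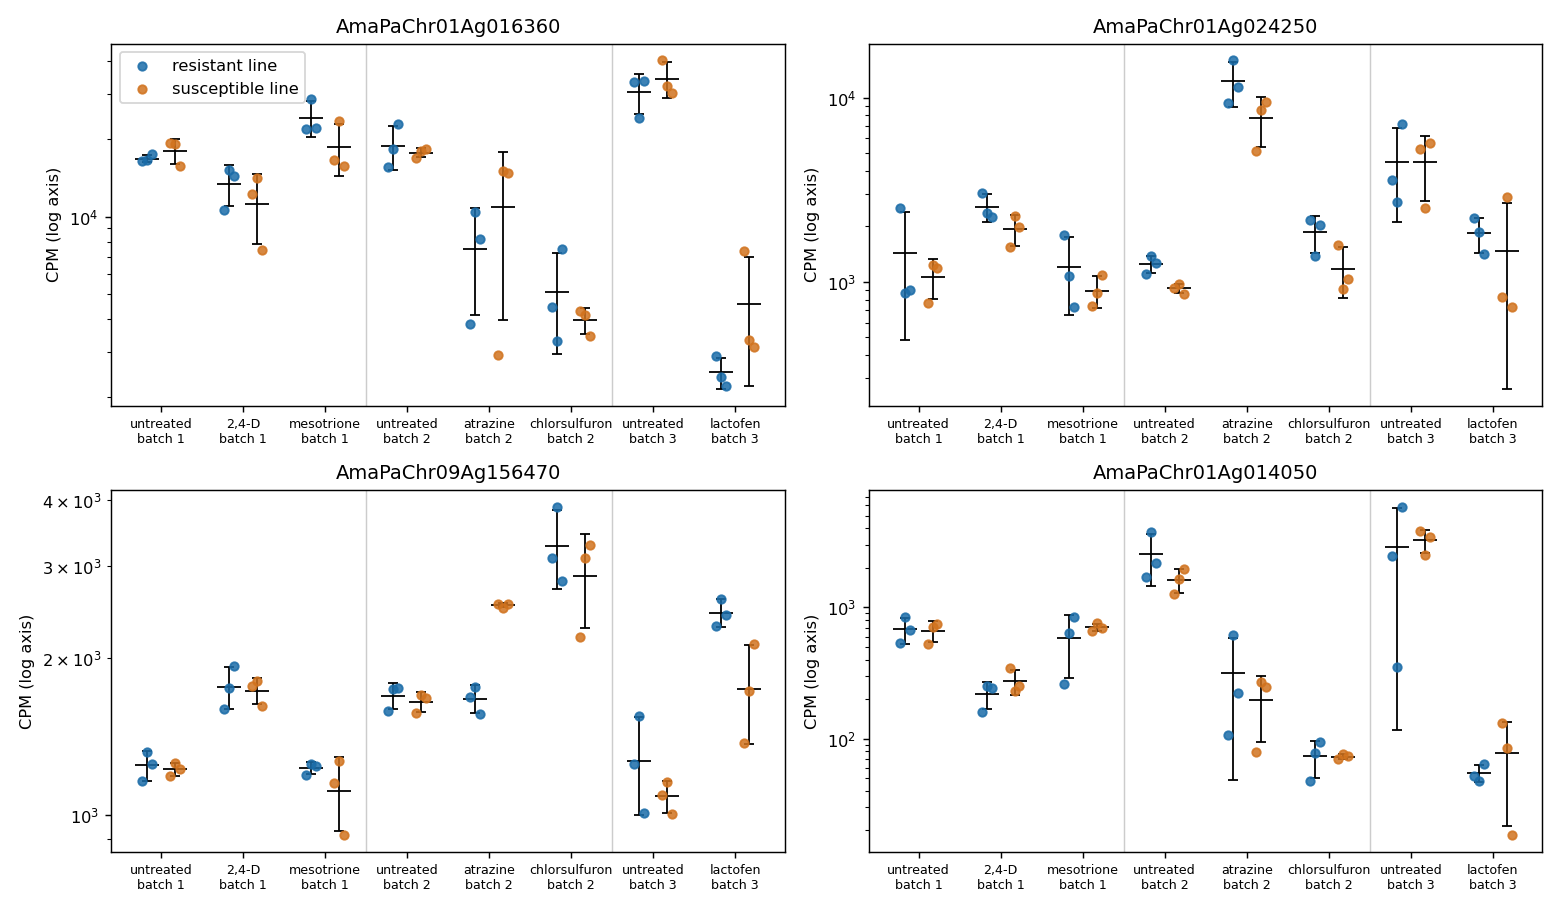
CPM (log axis, own range in each panel) of 4 of the 98 genes by treatment and batch, one point per library with group mean and SD, coloured by line. AmaPaChr01Ag016360 has its lowest value, 2202 CPM, after lactofen, AmaPaChr01Ag024250 peaks after atrazine at a mean of 12235 CPM in the resistant line, AmaPaChr09Ag156470 is above its controls after chlorsulfuron and lactofen, and AmaPaChr01Ag014050 is below 100 CPM in all chlorsulfuron libraries.

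Whether the lines responded differently was tested as the resistant response minus the susceptible response. None of the 98 genes passed for 2,4-D, atrazine, chlorsulfuron or lactofen by edgeR's quasi-likelihood test, and DESeq2 called 0 in each. Over all genes tested the background was 0% for 2,4-D and chlorsulfuron, 0.00969% for atrazine and 2.26% for lactofen. At an unadjusted p under 0.05 there were 6 of the 98 for 2,4-D, 2 for atrazine and 0 for chlorsulfuron and lactofen. Without susceptible lactofen library 5, 6 genes passed for lactofen, all with the higher value in the resistant line, and without resistant control 8 of batch 3, 1 did. For mesotrione the 6 genes with identical counts passed, against 0.126% of all genes, and 0 of 102 did when the other batches chose the list. The controls that put these 6 in the list are part of that contrast, so nothing is read from their count. For AmaPaChr00Ag261430 the difference was -3.05 (SE 0.55, adjusted p = 0.00407), and in a fit of batch 1 alone its adjusted p was 0.182.

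Treated plants of the same batch and line were also set against each other, so that no control that chose the genes enters the contrast. Treated and control libraries of the same plant number did deviate together, so the treated libraries are not fully independent of that choice. Against chlorsulfuron, atrazine left 20 of the 98 genes higher and 5 lower in the resistant line, where 9.45% of all genes were higher and 12.4% lower. Susceptible plants had 31 higher and 5 lower, against 13.3% and 11.8%. The median log2 difference was 0.63 and 0.70. The susceptible count depended on its libraries: without those numbered 7 it was 10 higher and 3 lower, and without atrazine library 5 it was 51 higher and 5 lower. In the resistant line it was 11 higher without atrazine library 7 and 9 higher without chlorsulfuron library 7.

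AmaPaChr01Ag024250 led that contrast in both lines, with log2 differences of 2.88 (SE 0.49, adjusted p = 5.66e-05) and 2.99 (SE 0.49, adjusted p = 2.68e-05). AmaPaChr10Ag174310 was at 2207, 6185 and 3345 CPM after atrazine and at 975, 406 and 1156 CPM after chlorsulfuron in resistant plants, a difference of 2.38 (SE 0.52, adjusted p = 0.000996). In the susceptible line AmaPaChr02Ag035920 was next, with a difference of 2.90 (SE 0.58, adjusted p = 0.000316), though its atrazine libraries ran from 570 to 3459 CPM. Lower after atrazine than after chlorsulfuron were AmaPaChr08Ag141840, AmaPaChr11Ag182110, AmaPaChr11Ag182120 and AmaPaChr11Ag182170 in both lines, with differences from -0.88 to -1.44. AmaPaChr09Ag156470 in the resistant line and AmaPaChr03Ag061300 in the susceptible line completed those counts, which are named in part after their values were seen. AmaPaChr08Ag141840 was at 849.7, 713 and 848 CPM after atrazine and at 2258, 2984 and 1947 CPM after chlorsulfuron in resistant plants.

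Between 2,4-D and mesotrione the list differed less. After 2,4-D 8 of the 98 were higher than after mesotrione and 1 lower in the resistant line, against 4.69% and 2.28% of all genes. The 8 included the 6 with identical counts, so that 3 of 93 distinct genes were higher, and with the list chosen from the other batches 2 of 102 were. Susceptible plants had 4 higher and 1 lower, against 5.09% and 2.71%, and with the plant number as a block 5 higher and 3 lower. AmaPaChr02Ag045270 led, at 9137, 6616 and 6941 CPM after 2,4-D and 1060.1, 774 and 1125 CPM after mesotrione in susceptible plants, a log2 difference of 2.93 (SE 0.57, adjusted p = 0.00107). AmaPaChr16Ag239110 was the one lower in both lines, at 529, 464 and 434 CPM against 1441, 2003 and 906 CPM in susceptible plants, a difference of -1.63 (SE 0.33, adjusted p = 0.0018). Its call in the resistant line was not kept without 2,4-D library 8 (adjusted p = 0.0617). AmaPaChr02Ag041690, named after its values were seen, was higher in both lines, by 1.32 (SE 0.35, adjusted p = 0.0191) and 1.73 (SE 0.36, adjusted p = 0.00198). The median of the list, by contrast, was lower after 2,4-D, at -0.30 and -0.38. All 2,4-D libraries lay below all mesotrione libraries for 42 and 44 of the 98 genes, against 15.5% and 15.6% of all genes. They lay above all mesotrione libraries for 17 in the resistant and 10 in the susceptible line, for which the share of all genes is not given here.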

How the data were processed

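The authors deposited raw whole-number read counts per gene model, in a column for each library. Trimmomatic, STAR, FastQC and DESeq2 appear in the submitters' processing notes without version or role. Genome build, annotation and strand setting of the counting were not given in the sources used here. Of the counts above 0, 99.1% were even, as when both mates of a pair are counted. The entry without a gene name held 0 counts and was dropped. Library totals were 16583010 to 72979429 counts, and their number limits the precision only for rare genes.

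CPM used the column sum. All 48 libraries entered 1 fit of edgeR 4.0.16 (R 4.3.3) with a mean per group, TMM scaling, edgeR's default low-count filter and robust quasi-likelihood dispersions. It tested 20645 genes, among them all 98 described here, with 32 residual degrees of freedom. The common dispersion had a square root of 0.458. Genes were called at a Benjamini-Hochberg adjusted p under 0.05 over all genes tested. SE is the log2 change divided by the square root of the F statistic. The fit was also run on simulated data for a single comparison, 2,4-D in the resistant line. Those data had less spread between libraries than the real ones and no pairs, so nothing about the calls is read from them. DESeq2 1.42.0 was an alternative. Others were total counts, size factors by median of ratios, TMM without the 98 genes, no filter, fragment counts, a 2-fold minimum, 1 batch at a time, list thresholds of 500 and 2000 CPM, the median in place of the mean, the list chosen from other batches, and each library left out in turn. Counting identical gene models once was added after seeing the data.

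The titles' plant numbers were checked as pairs before a blocked fit was read. Deviations from group means of same-numbered libraries correlated above 0.1 in every pair for 9 of 10 treated and control group pairs. They were taken as paired there. In susceptible lactofen plants the lowest was -0.212, and they were not, though the block was fitted to all groups. Calls in the text are from the fit without the block, which leaves the pairs out, unless the block is named. With the block 4 genes were higher and 51 lower after atrazine in the resistant line, and 7 and 51 in the susceptible line. After chlorsulfuron the counts were 3 and 64 in the resistant and 2 and 73 in the susceptible line. After lactofen they were 2 and 75 in the resistant line.

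The 98 genes, the comparisons and the alternatives were chosen with earlier results of these data known. Genes were named by rule: the 5 highest, the 2 on each side of the threshold, the 2 most and least variable in controls, up to 2 per direction and comparison by log2 change, the 2 called most and least often, and up to 2 with opposite calls. Gene lists by product and cell type markers were not applied, since no names were at hand.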

Additional observations from a re-analysis of the deposited data

Results flagged for a closer look

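The test of the difference between the lines in their response to mesotrione passed the threshold for AmaPaChr00Ag261430, AmaPaChr00Ag261550, AmaPaChr00Ag262370, AmaPaChr00Ag262380, AmaPaChr00Ag263050 and AmaPaChr00Ag263060, with a log2 difference of -3.05 for each (SE 0.55, adjusted p = 0.00407 by edgeR's quasi-likelihood test). These are the 6 genes with identical counts in all 48 libraries, so the difference is 1 measurement and not 6. All 3 resistant mesotrione libraries lay below all 3 resistant controls, at 432 to 1355 CPM against 2631 to 7827 CPM. The susceptible libraries were at 2369 to 3573 CPM against 1851 to 2512 CPM. The resistant controls 7 and 8 of batch 1 were the highest of the 48 libraries for these genes. The 6 genes reached the list only through the batch 1 controls that enter this contrast, and with the list chosen from the other batches 0 of 102 genes were called. In a fit of batch 1 alone the difference was -3.04 and was not called (adjusted p = 0.182). With each single library of the 4 groups left out in turn, AmaPaChr00Ag261430 was still called.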

How the results depend on the processing

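Of the counts of called genes, 384 of the values under other settings kept their direction and stayed within 1.5 times, 55 moved further and 6 changed direction. Of the share differences 100 stayed, 18 moved and 4 changed sign. Counts are given here as the percent of the genes called in either direction.

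For 2,4-D in the resistant line (5.10%) the value was 0 with total counts and at 2000 CPM, and 0 to 6.12% with single libraries left out. For susceptible plants (5.10%) it was 8.16% with the plant number as a replicate block and with DESeq2, 27.6% within batch 1, 7.98% at 500 CPM, 0 at 2000 CPM, and 0 to 4.08% with single libraries left out. For mesotrione in the resistant line and for its line difference (6.12% each) it was 2.52% at 500 CPM, 1.08% with identical genes counted once, and 0 at 2000 CPM, by the median and with the list from other batches. That line difference was also 0 within batch 1. DESeq2 called 1.02% for mesotrione in the susceptible line. Leaving out single libraries gave 37.8 to 57.1% for atrazine in the susceptible line, 0 to 6.12% for the lactofen line difference and 0 to 6.12% for the untreated lines, which were both 0.420% at 500 CPM.

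Atrazine against chlorsulfuron was 39.8% in the resistant line within batch 2 and 12.2 to 32.7% with single libraries left out. Susceptible plants gave 13.3% without the libraries numbered 7 and 21.4 to 57.1% with single libraries left out. For 2,4-D against mesotrione lower calls outnumbered higher ones in several settings. For resistant plants these were 21.4% within batch 1 and 10.1% at 500 CPM. Without a change of direction the value was 14.3% with DESeq2, 3.23% at 2000 CPM, 3.61% by the median, 4.30% with identical genes once and 2.94% with the list from other batches. For susceptible plants the changed ones were 19.4% within batch 1, 11.2% with DESeq2, 8.40% at 500 CPM and 7.14% without mesotrione library 7. The others were 8.16% with the block and 3.23% at 2000 CPM, and single libraries left out gave 3.06 to 7.14%.

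The share differences in percentage points at 500 and 2000 CPM were -5.67 and -2.44 for 2,4-D in the susceptible line, -8.73 and -3.87 for atrazine in the resistant line, and -4.23 at 2000 CPM in the susceptible line. For chlorsulfuron they were -13.5 and -7.12 (resistant) and -13.4 and -7.06 (susceptible), and for lactofen -24.4 and -11.9 (resistant) and -26.3 and -13.0 (susceptible). Without the most abundant gene they were -2.87 for 2,4-D (susceptible), -8.85 and -8.69 for chlorsulfuron (resistant and susceptible) and -17.9 for lactofen (susceptible). With the list from other batches 2,4-D in the susceptible line gave -4.15. For mesotrione in the resistant line the sign changed to 0.852 at 2000 CPM, 0.683 by the median, 0.306 with identical genes once and 0.841 with the list from other batches. The causes were not tested.

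Among named genes 1464 values kept their call, 47 lost it, 5 gained one, and AmaPaChr07Ag131880 after lactofen in the resistant line ran from -0.42 to 1.08 with single libraries left out, the latter without control 4 of batch 3, where it was called higher. The block changed the call of AmaPaChr11Ag182110 after 2,4-D in the resistant line and of AmaPaChr10Ag173280 after lactofen in the susceptible line (adjusted p = 0.0446), and no other call of a named gene. Susceptible lactofen libraries were not taken as paired, so nothing is read from the blocked call of AmaPaChr10Ag173280. The block could not be fitted for the untreated lines. Total-count scaling moved the median log2 of all genes from 0.05 to 0.18 for chlorsulfuron in the susceptible line, and for atrazine against chlorsulfuron from -0.01 to -0.15 (resistant) and from 0 to -0.24 (susceptible). The medians of the 98 genes were then -1.54, 0.48 and 0.43. In fits with a library left out, the remaining libraries of its group are assumed to vary like those of the other groups. Library totals do not limit these abundant genes, and groups of 3 libraries do: changes of around 2-fold in the more variable genes can go uncalled.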
